A study of Mus musculus with 8 samples.

Results

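The arrays of this study carry 3229 noncoding loci whose probes are named only by a mouse genome interval (build mm9) and a letter, F or R, for the strand. Of these, 832 have probes of both letters and are described here, while 2397 have probes of 1 letter. The loci were found by reading chromosome, start, end and letter from the probe names and keeping each interval that occurs with F and with R, which took 1893 of the 4449 probes named by position and of the 56605 different probes on an array. At 665 loci (79.9%) each strand has 1 probe, and at 167 (20.1%) a strand has more, up to 6. The intervals are 5051 to 508115 bp long, with a median of 17551 bp. The letter names a strand relative to the other probe of the locus, and which genome strand F stands for was not determined here. Probe sequences are not given in the sources used here.

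Total RNA from quadriceps muscle of 3 Grsf1cKO and 3 WT male mice aged 17 months was Cy3-labeled and read on Agilent 1-color arrays, 1 array per mouse, with a repeat array for both mice numbered 1. In Grsf1cKO mice, exons IV and V of Grsf1, which encodes a mitochondrial RNA-binding protein, are flanked by loxP sites and removed by Cre under control of Myf5, a gene active in muscle progenitors. The line came from C57BL/6N-Atm1Brd Grsf1tm1a(EUCOMM)Wtsi/WtsiIeg animals (Grsf1tm1a), whose LacZ and Neo cassettes were taken out with FLPo mice. WT mice were wild-type controls matched for age and sex, and whether they carried the floxed allele or Cre is not given in the sources used here. The sample labels name the vastus intermedius and the paper names the rectus femoris, another muscle of the quadriceps.

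Long noncoding RNAs are transcribed by RNA polymerase II, often from one strand of an interval, and an RNA from the opposite strand of the same interval is called antisense. Antisense transcripts can overlap protein-coding genes or other noncoding RNAs, and some act on the gene they overlap while many have no known role. Strand-specific labeling copies each RNA in one orientation, so that probes for opposite strands are meant to read different RNAs.

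The measure used for each locus is F minus R, the log2 signal of its F probe minus that of its R probe on the same array, after the arrays were quantile normalized and the arrays of a mouse averaged. A value above 0 means that the F probe was brighter, and 1 unit is a 2-fold ratio. Where a strand has several probes, the brightest over all mice was used. The F and R probes of a locus differ in sequence and so in how strongly they bind their target, which makes F minus R a difference in probe signal and not in RNA amount. Between genotypes the same pair of probes is compared, so that a fixed difference in binding cancels. A probe counted as measured in a mouse when the array software called it well above background on all arrays of that mouse.

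One array stands apart from the rest. The share of the 1893 probes well above background was, in order of mouse number, 73.3%, 62.3% and 66.0% on the first Grsf1cKO arrays against 70.0%, 71.8% and 64.2% on the first WT arrays. It was 69.7% on the repeat array of WT 1 and 90.8% on the repeat array of Grsf1cKO 1. The 25th percentile of the log2 signal of all probes before normalization was 5.79 on that repeat array and 3.27 to 3.97 on the other 7, so that dim probes read brighter on it. In all, 240 of the 1893 probes (12.7%) were well above background on the repeat array of Grsf1cKO 1 alone, while at most 5 were on any other array alone and 145 (7.66%) were on none. The SD of the change in F minus R from first to repeat array was 0.39 for WT 1 and 1.13 for Grsf1cKO 1 over the 319 loci with both strands measured in all mice, and 0.95 and 1.84 over the others. A probe had to be above background on both arrays of Grsf1cKO 1 to count as measured in that mouse, so the repeat alone could not make it so. The arrays were on 2 slides, slide 1 with the array of WT 2 and the first one of WT 1, and slide 2 with all others, among them every Grsf1cKO array.

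Grsf1 itself was read by 1 probe, whose position relative to the deleted exons was not determined. Its log2 signal in the 3 Grsf1cKO mice, given here and throughout in order of mouse number, was 12.15, 12.02 and 12.08, against 14.30, 14.25 and 14.27 in the 3 WT mice. The genotypes did not overlap, and the difference was −2.19 (SE 0.0811, adjusted p = 0.00328 with limma over 38888 probes). That passes the criteria used here for calling a difference between genotypes, which are a change of more than 1.5-fold, p under 0.01 before adjustment and a false discovery rate under 0.2. With replicate number as a block the difference was the same and the criteria were not met (adjusted p = 0.250). The tissue read as muscle in every mouse. All 13 markers of skeletal muscle fibers, of which Tnnt3 was the brightest, were well above background in all 6 mice. The log2 of their summed linear signals was 21.98, 22.00 and 22.02 in Grsf1cKO against 21.98, 21.97 and 21.97 in WT. The brightest of them hold the top ranks of an array, which quantile normalization sets to the same value, so this sum cannot show a difference. Summed levels of the other lists were formed in the same way, and the brightest markers weigh most in them. Markers of slow fibers varied among mice, with Myh7 at 11.35, 9.46 and 9.39 against 9.27, 11.38 and 11.33 and Tnnt1 at 12.70, 12.25 and 14.38 against 11.98, 12.79 and 13.02, and the genotypes overlapped in both.

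RNA of other cells was also present. The summed level of 5 leukocyte markers, led by Cd68, was 12.57, 12.64 and 13.89 in Grsf1cKO against 12.54, 12.71 and 12.43 in WT, and that of 4 epithelial markers was 8.28, 8.68 and 9.84 against 8.08, 7.93 and 8.20. Grsf1cKO 3 was the highest mouse in both lists, and its epithelial sum was mostly Krt8 (9.57), whereas Krt5 was the brightest of that list in the WT mean. The summed level of 4 fibroblast markers, led by Dcn, lay between 18.19 and 18.41, and that of 4 endothelial markers, led by Cdh5, between 14.13 and 14.32. Adipocyte markers (4, led by Cidec) spanned 13.93 to 15.38 and satellite cell markers (3, led by Cdh15) 12.48 to 12.82, and Myf5 was measured in 0 mice. None of these lists held a marker past the criteria, and 2 of the 4 epithelial markers, Krt5 (−0.44) and Krt8 (1.75), had an unadjusted p under 0.05 with limma, as had 4.25% of all 38888 probes tested, while 0 markers of the other cell types named here did. In bulk muscle, fewer cells of a type and less RNA per cell cannot be told apart, and the part of other cells in the values of the noncoding loci was not tested.

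Probes of the loci with both strands were measured more often than other noncoding probes on the same arrays. Of the 1893 probes, 57.7% were well above background in all 6 mice and 22.1% in none, with a median log2 signal of 5.73. Among the probes of loci with a single strand these values were 49.6%, 29.0% and 5.11, and among 2785 probes of RefSeq long noncoding RNAs 32.8%, 48.9% and 3.75. Probes of protein-coding genes gave 73.5%, 16.4% and 8.50. These are counts of probes on one array design and were not tested.

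Both strands were measured in all 6 mice at 319 of the 832 loci (38.3%). F alone was measured in all mice at 153 loci (18.4%), R alone at 207 (24.9%) and neither at 153 (18.4%). The intervals of the 4 classes had median lengths of 17251, 18876, 16892 and 17576 bp, in that order, so the classes were alike in median length. With all 8 arrays counted, a strand that was not measured in all mice was seldom dark on every array. F was above background on no array at 56 loci where R was on some, R at 49 loci where F was on some, and both at 9. Much of this rested on the repeat array of Grsf1cKO 1, since on the other 7 arrays these counts were 123, 91 and 49. Without that array, a strand not measured in all mice was thus often dark on every array.

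F minus R lay on either side of 0 in near equal numbers, with F brighter in the mean of the 6 mice at 397 loci (47.7%) and R at 435 (52.3%). Its 5th, 25th, 50th, 75th and 95th percentiles over the 832 loci were −6.66, −2.84, −0.21, 2.37 and 6.26. The spread was wide next to its mouse-to-mouse error. The median absolute F minus R was 2.56, against a median SD over the 6 mice of 0.50, and the absolute mean exceeded the SD at 735 loci (88.3%). Where both strands were measured in all mice, the median absolute value was 2.45 and the median SD 0.31.

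The brighter strand was the same one in every mouse at 702 loci (84.4%), F at 328 and R at 374. Among the 679 loci with at least 1 strand measured in all mice, it was the same at 632 (93.1%). F was over 4-fold brighter than R in every mouse at 189 loci (22.7%), and R over 4-fold brighter than F at 217 (26.1%). At over 2-fold these counts were 252 and 293, and at over 8-fold 132 and 154, so that R led at each level. Among the 319 loci with both strands measured, the order was the other way, with F over 4-fold brighter at 94 (29.5%) and R at 66 (20.7%), and at 29 of these loci (9.09%) the strands were within 2-fold of each other in every mouse.

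Many of the large preferences involve a strand near background. Of the 406 loci with an over 4-fold preference in every mouse, both strands were measured in all mice at 160 (39.4%), and at 123 (30.3%) the dim strand was above background on none of the 7 arrays other than the repeat of Grsf1cKO 1. When background was instead corrected with normexp and an offset of 50 was added, the median absolute F minus R was 1.10, and 121 loci favored F and 117 favored R by over 4-fold in every mouse. Normexp thus left F slightly ahead where the processed signal put R ahead.

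**Figure D1:**
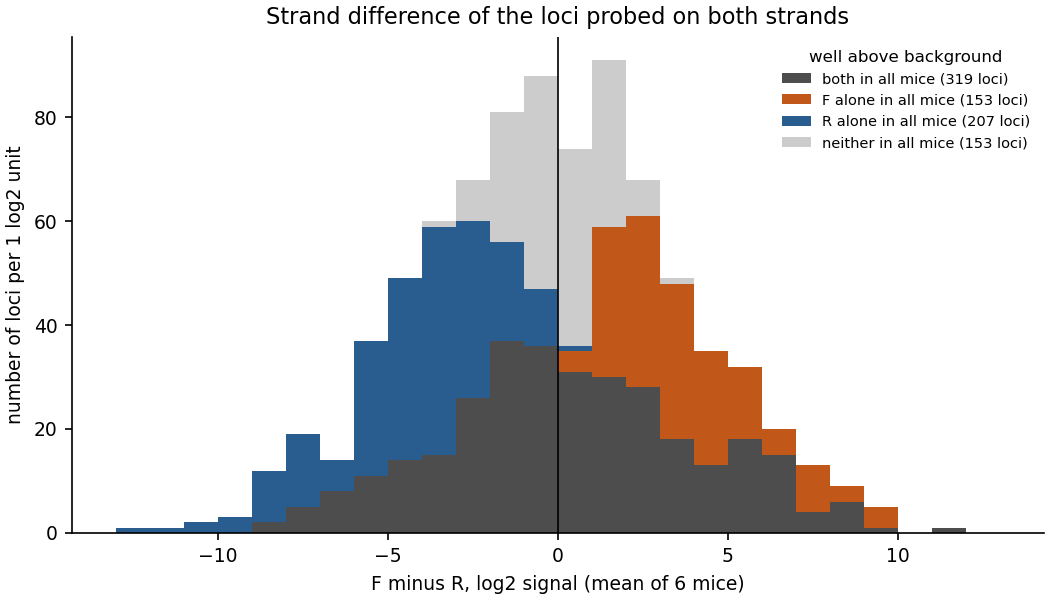
Number of loci (vertical axis) by F minus R in log2 units (horizontal axis, mean of 6 mice), with loci whose strands were both measured in all mice shown apart from the others. Values fall on either side of 0, with 5th and 95th percentiles of −6.66 and 6.26 over all 832 loci.

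Probes of one strand differ among themselves too, and their differences are given beside F minus R. Between 2 probes of the same strand, the first by probe name where there were more, the median absolute difference was 1.45 over the 132 strands of any locus named by position where both were measured in all mice, and 50 of these pairs (37.9%) differed by over 4-fold. Between F and R at the 241 loci with 1 probe per strand and both measured in all mice, it was 2.49, and 145 pairs (60.2%) differed by over 4-fold. These pairs come from different loci. At the loci with both strands and several probes on one, the median was 1.66 over 72 same-strand pairs and 2.84 over 61 opposite-strand pairs (the first F and the first R probe by name) measured in all mice. The larger value for opposite strands was not tested, and both kinds of pair overlapped widely. Without a filter on background, the medians were 1.82 over all 316 same-strand pairs and 2.50 over the opposite-strand pairs of all 665 loci with 1 probe per strand, with 44.0% and 59.7% over 4-fold.

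At the 167 loci with more than 1 probe on a strand, every pairing of an F with an R probe gave the same brighter strand at 114 (68.3%). Among the 101 of them whose mean F minus R was over 4-fold, it did at 80 (79.2%). At the others, which strand is brighter depended on the probe that stood for it.

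Overlapping intervals gave a similar reading. There were 19 adjacent pairs of loci that overlap, 17 of which share a start. In 14 of them a strand was measured in all mice in both loci, and the brighter strand was the same in 8 and opposite in 6 (42.9%), with a median absolute difference in F minus R of 4.09 between the loci. For chr4:131734714-131741964 F minus R was −4.61 and for chr4:131734714-131742542, which has the same start, 2.90. For chr5:31856417-31916317 and chr5:31856417-31916414 it was 6.51 and 9.75. Both these pairs were chosen after their values were seen, and they show that probe pairs of nearly the same interval favored opposite strands in one case and the same strand in the other.

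**Figure D2:**
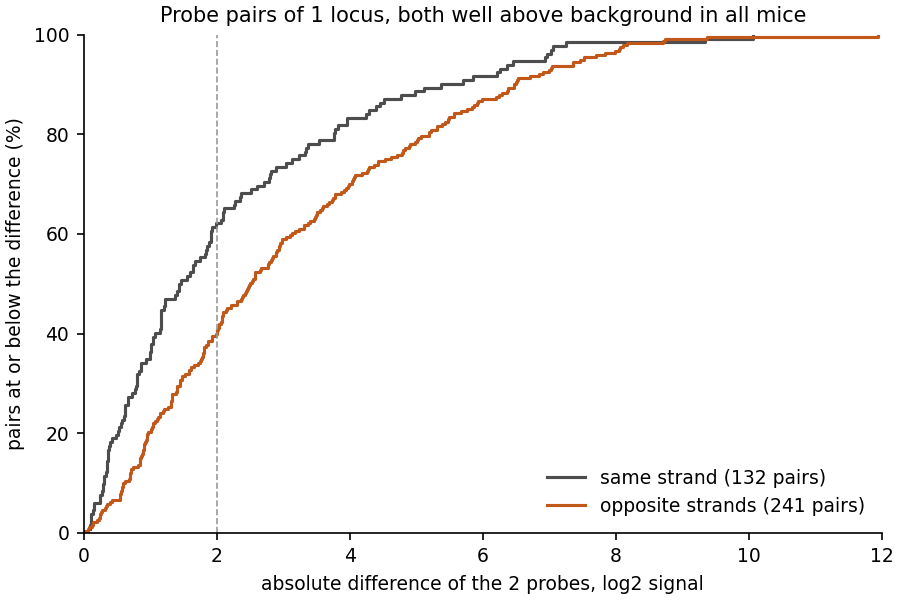
Absolute difference in log2 signal between 2 probes of the same strand, at any locus named by position, and between the F and R probe of a locus with 1 probe per strand, for pairs measured in all mice. The medians are 1.45 for 132 same-strand pairs and 2.49 for 241 opposite-strand pairs, and the distributions overlap.

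At the 5 loci most in favor of F, the F probe was among the brighter signals on the array, and the R probe ranged from near background to a middling signal. At chr4:141527564-141547339 the F signal was 17.48, 17.48 and 17.51 in Grsf1cKO against 17.62, 17.74 and 17.51 in WT, at the 99.6th percentile of all probes. Its R signal was 6.66, 5.46 and 5.85 against 5.66, 5.18 and 4.93, at the 42.5th percentile. Both strands were above background on all 8 arrays, and F minus R was 11.93 ± 0.66 (SD, n = 6), the largest value in favor of F. At chr14:78924115-78938125, F was 17.31, 17.49 and 17.38 in Grsf1cKO against 17.27, 17.61 and 17.22 in WT, and R was 8.19, 8.14 and 7.86 against 7.93, 7.89 and 8.02. The R probe stood at the 61.0th percentile of all probes. Here too both strands were above background on all 8 arrays, with F minus R at 9.38 ± 0.22 (SD, n = 6), so that the preference does not rest on an unmeasured strand.

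For the other 3 loci the R probe was near background, and their rank rests in part on that signal. At chr10:97196521-97207471, F was 12.54, 12.58 and 12.57 in Grsf1cKO against 12.56, 12.47 and 12.55 in WT, and R was 2.59, 2.14 and 2.18 against 2.17, 3.20 and 4.04. R was above background on 1 of 4 Grsf1cKO arrays and 0 of 4 WT arrays. In the processed signal, F was at least 282-fold brighter in WT muscle. Such a bound, here and below, holds for that signal only and depends on how background is corrected. Over the alternatives tried, mean F minus R at this locus ran from 6.26 to 10.09. At chr14:44284425-44300475, F was 13.46, 13.47 and 13.45 against 13.25, 13.29 and 13.57, and R was 3.13, 4.32 and 4.39 against 3.24, 4.05 and 4.30. R was again above background on 1 of 4 Grsf1cKO and 0 of 4 WT arrays, and F was at least 505-fold brighter in WT in the processed signal. Mean F minus R ran from 6.91 to 9.71 over the alternatives. At chr5:31856417-31916414, F was 14.63, 14.31 and 14.68 against 14.69, 14.65 and 14.31 and R was 5.13, 4.51 and 4.57 against 4.48, 4.81 and 5.27, with R above background on 2 of 4 Grsf1cKO and 4 of 4 WT arrays and F minus R at 9.75 ± 0.43 (SD, n = 6). At all 5 loci the genotypes overlapped in F minus R.

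The 5 loci most in favor of R mirror this, and at each of them F was not called above background on some array. Their choice and order thus rest in part on F signals near background. At chr1:193875525-193978800 the F signal was 4.83, 5.34 and 3.88 in Grsf1cKO against 4.59, 3.79 and 3.99 in WT, and R was 16.34, 16.47 and 16.34 against 16.60, 16.35 and 16.55. F was above background on 3 of 4 Grsf1cKO and 1 of 4 WT arrays, so that the mean F minus R of −12.04 ± 0.60 (SD, n = 6) rests in part on F signals near background. The R strand has another probe here, with a mean signal of 9.42. At chr2:65240793-65292293, F was 2.89, 4.29 and 3.15 against 3.29, 2.54 and 3.96 and R was 15.02, 15.26 and 14.99 against 15.04, 15.48 and 14.93. F was above background on 1 of 4 Grsf1cKO and 0 of 4 WT arrays, and R was at least 1735-fold brighter in WT in the processed signal. Mean F minus R ran from −11.93 to −6.52 over the alternatives tried. The other R probe of this locus had a mean of 4.62 and was measured in 2 of 6 mice, so the preference here rests on the brighter R probe.

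The remaining 3 have 1 probe per strand. At chr13:108548345-108679004, F was 6.32, 5.43 and 5.58 in Grsf1cKO against 5.44, 5.05 and 2.17 in WT, and R was 15.79, 15.91 and 15.98 against 15.94, 16.20 and 15.86. F was above background on 4 of 4 Grsf1cKO and 3 of 4 WT arrays, with WT 3 as the low mouse. At chr11:60728207-60745369, F was 3.85, 3.16 and 2.96 against 3.75, 2.83 and 2.16 and R was 13.11, 13.15 and 13.15 against 13.07, 13.44 and 13.12. F was above background on 1 of 4 Grsf1cKO and 0 of 4 WT arrays, so that R was at least 451-fold brighter in WT in the processed signal. Mean F minus R ran from −10.35 to −6.74 over the alternatives tried. At chr14:43929100-43945100, F was 3.35, 3.83 and 3.45 against 3.55, 1.95 and 2.18 and R was 12.93, 12.96 and 12.49 against 12.76, 12.84 and 12.56, with F above background on 1 of 4 arrays in each genotype. The genotypes overlapped in F minus R at 4 of these 5 loci and lay narrowly apart at the one on chromosome 13.

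**Figure D3:**
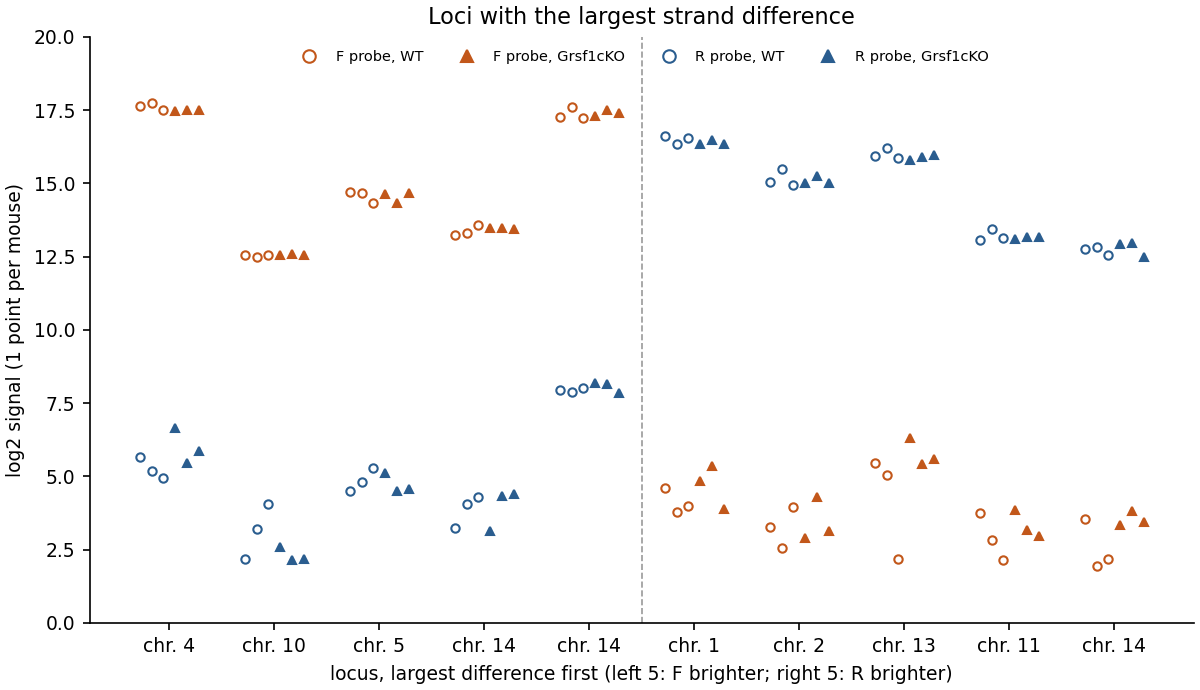
Log2 signal of the F and the R probe in each of the 6 mice at the 5 loci most in favor of F and the 5 most in favor of R (F in orange, R in blue, circles for WT, triangles for Grsf1cKO). At the locus of chromosome 13 the mice lie close together on the bright R strand, while the F signal runs from 2.17 to 6.32.

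Some loci were bright on both strands. Of the 5 whose dimmer strand was brightest, chr12:73838608-73862621 led, with F at 15.91, 16.31 and 16.05 in Grsf1cKO against 15.59, 16.27 and 15.98 in WT and R at 17.46, 17.58 and 17.50 against 17.38, 17.72 and 17.34. Its F minus R was −1.48 ± 0.18 (SD, n = 6), but its other F probe had a mean of only 4.68, and the mean over probes gave −7.15. At chr7:108209996-108216032, F was 11.98, 11.88 and 12.14 against 11.85, 12.05 and 12.09 and R was 17.01, 17.06 and 17.12 against 17.06, 17.09 and 17.00, which put F minus R at −5.06 ± 0.12 (SD, n = 6). Its other F probe, at 10.56, gives the same brighter strand.

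At chr17:71242333-71273533 the strands were nearly level, with F at 11.72, 11.85 and 11.85 in Grsf1cKO against 11.94, 12.002 and 12.28 in WT and R at 12.49, 12.57 and 12.63 against 12.37, 12.64 and 12.37. R was the brighter in every mouse by a small margin, −0.57 ± 0.27 (SD, n = 6), which was wider in all Grsf1cKO than in all WT mice (difference −0.37, adjusted p = 0.918 in limma). At chr5:34696192-34722842, F was 15.08, 15.33 and 15.13 against 14.87, 15.43 and 14.91 and R was 11.94, 11.96 and 11.97 against 11.53, 12.11 and 11.77, so that F minus R was 3.25 ± 0.11 (SD, n = 6). Its other F probe, with a mean of 8.76, was dimmer than the R probe, and the mean over probes gave 0.06. The fifth of these loci, chr5:35975265-35982561, changed its brighter strand between genotypes.

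The pattern over loci was close to the same from mouse to mouse. Pearson's r of F minus R over the 832 loci was 0.970 to 0.979 between mice of the same genotype and 0.957 to 0.977 between mice of different genotypes. These are correlations across loci, which share probes and arrays and are not independent replicates. The F and R signals of a locus were hardly related, with r = 0.21 over all loci and 0.03 over the 319 with both strands measured. Neighbors along a chromosome shared their brighter strand about as often as not. Of 57 adjacent pairs closer than 50000 bp with a strand measured in both, 32 (56.1%) had the same brighter strand, and of 545 at any distance 257 (47.2%) did. The loci lie on chromosomes 1 to 19 and X, from 17 on chromosome 19 to 69 on chromosome 1. Over 4-fold preferences for F and for R numbered 15 and 6 on chromosome 3, 18 and 12 on chromosome 14 and 2 and 9 on chromosome 16, and no chromosome held loci of 1 preference only.

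At chr5:35975265-35982561, an interval of 7297 bp with 1 probe per strand, the brighter strand was R in WT and F in Grsf1cKO muscle. F minus R was 5.06, 4.99 and 4.17 in Grsf1cKO against −4.23, −4.08 and −4.41 in WT. All Grsf1cKO mice favored F and all WT mice favored R, with no overlap, and on all 8 arrays F and R were both above background. The means were 4.74 ± 0.50 and −4.24 ± 0.17 (SD, n = 3 each). The difference was 8.98 (SE 0.296), a 504-fold change in the ratio of the strands, with an adjusted p of 1.51e-06 in limma over the 439 loci that passed the filter on dim probes. An exact two-sided permutation of the 6 mice gave p = 0.1, the smallest it can give with 3 against 3. Under the other settings tried, adjusted p ran from 6.39e-08 to 0.000121.

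The mean of the strands differed far less than their ratio. The mean of its F and R log2 signals was 14.51 ± 0.15 in Grsf1cKO and 14.10 ± 0.19 in WT (SD, n = 3 each), a difference of 0.40 with no overlap (exact two-sided permutation p = 0.1). The F signal was 16.89, 16.98 and 16.75 against 11.86, 12.29 and 11.81, and the R signal was 11.83, 11.997 and 12.58 against 16.09, 16.36 and 16.22. F stood at the 99.1st percentile of all probes in Grsf1cKO and at the 85.6th in WT, and R at the 86.5th and the 98.5th, so in either genotype the strand with the lower signal still read above most probes. Because probe binding differs, the RNA amounts of the strands cannot be compared with each other.

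Repeat arrays read the locus alike, with F minus R at 5.17 and 4.96 on the first and the repeat array of Grsf1cKO 1 and at −4.29 and −4.17 on those of WT 1, which were on different slides. Within slide 2 alone, where both genotypes are present, the difference was 9.03 (adjusted p = 0.000121 in limma), with slide as a block 9.12 (adjusted p = 3.55e-06), and without the repeat array of Grsf1cKO 1, a setting added after seeing the data, 9.01 (adjusted p = 5.51e-07). The fit with slide as a block took arrays as units, so that both mice numbered 1 entered it with their repeat arrays as well. Its estimated correlation between arrays of a mouse was −0.0632, so the repeats counted in effect as further mice. The p values of that fit thus do not measure the spread over 6 mice. Slide 1 held WT arrays only. The probes taken singly had adjusted p values of 0.00263 for F and 0.0159 for R in limma over 38888 probes. The R probe missed the criteria in slide 2 alone (−3.99, adjusted p = 0.287), with replicate number as a block (−4.09, adjusted p = 0.293), without WT 1 (−4.15, adjusted p = 0.235) and without WT 3 (−4.09, adjusted p = 0.227). F minus R met them in all of these settings and was 8.82 to 9.26 with each mouse left out.

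**Figure D4:**
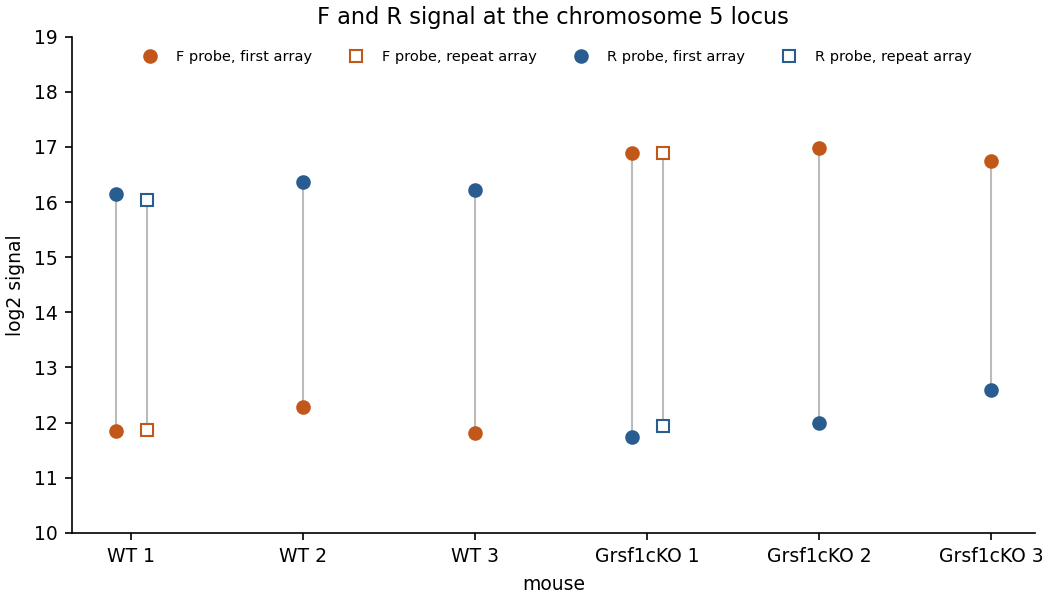
Log2 signal of the F and the R probe of the chromosome 5 locus on each of the 8 arrays, by mouse and genotype. In all 4 Grsf1cKO arrays F lies above R and in all 4 WT arrays R lies above F.

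No other locus met the criteria. F minus R was tested with limma at the 439 loci whose F and R probes were both measured in at least 3 of the 6 mice, which left out the other 393. The number called was 1 locus higher and 0 lower in Grsf1cKO (0.228% of 439), and with no filter on all 832 loci it was also 1 higher and 0 lower. At an unadjusted p under 0.05 there were 22 loci (5.01%), 11 higher and 11 lower. The sample titles number the mice and do not say whether mice of equal number form a pair or batch. Residuals of F minus R, the values left after the genotype fit, were alike to some degree between mice of equal number. Their r was 0.49, 0.23 and 0.13 over loci, which are not independent. With replicate number as a block there were 17 higher and 23 lower (9.11%). With slide as a block and arrays as units there were 3 higher and 6 lower (2.05%). The 11 higher became 7 without Grsf1cKO 1, 7 without WT 2 and 7 without WT 3, and the 11 lower became 17 without WT 1 and 7 without WT 2. Without the repeat array of Grsf1cKO 1 there were 5 higher and 8 lower, so these counts moved with the fit and with single mice and arrays. The genotypes did not overlap at 42 of 438 loci with a value in every mouse (9.59%), 19 higher and 23 lower. The median difference was −0.01, the median absolute difference 0.21, and 51 loci (11.6%) differed by over 1.5-fold. The lowest adjusted p after the chromosome 5 locus was 0.590.

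The count of called loci changed under 2 of the settings tried. With replicate number as a block, there were 1 higher and 2 lower, the latter being chr1:121971906-121988306 (−1.94, adjusted p = 0.119 in limma) and chr7:50509139-50526856 (−2.42, adjusted p = 0.0932). Without WT 1, there were 2 higher and 1 lower, the lower one being chr1:121971906-121988306 and the additional higher one chr6:127588224-127609749, which was named after its values were seen and whose difference with all mice was 0.94 (SE 0.347, adjusted p = 0.918). With all mice and no block, none of these 3 loci met the criteria.

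Over the 319 loci with both strands measured in all mice, the median absolute difference was 0.18, and apart from the chromosome 5 locus the largest was 1.11. That was at chr12:74135916-74142780, where the difference ran from −1.62 to −0.51 over the alternatives tried. F minus R had a different sign in the genotype means at 11 of the 439 loci. At the 10 besides chromosome 5 both means lay within 1.02 of 0. At 3 of these (30%) the genotypes did not overlap, beside 9.59% of the 438 loci with a value in every mouse. The 10 were picked by their genotype means, so the shares were not compared. Both strands moved by over 1.5-fold in opposite directions at 4 of the 439 tested loci and in the same direction at 1. Across the 439 loci, r between the changes of F and of R was −0.42, and −0.09 without the chromosome 5 locus, so the first value rests on that locus. These points share arrays and are given as a description.

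The same loci were also read 1 probe at a time. Of 1294 probes tested, 1 was higher and 1 lower in Grsf1cKO, both of them at the chromosome 5 locus, while 3 of all 38888 tested probes (0.00771%) were called. An unadjusted p under 0.05 was found for 76 (5.87%), 13 higher and 63 lower, beside 4.25% of all probes, 502 higher and 1151 lower. With replicate number as a block these shares were 10.4% and 6.20%, and with slide as a block 1.78% and 1.72%. The lean toward lower values depended on the scaling, since after scaling to the 75th percentile 36 were higher and 14 lower, and among all probes 1000 and 287. Without the repeat array of Grsf1cKO 1 there were 23 higher and 45 lower, and the 13 higher became 22 without Grsf1cKO 1 and 30 without Grsf1cKO 3. The lower called probe, R of the chromosome 5 locus, was not called without WT 1, without WT 3, in slide 2 alone or with replicate number as a block. The genotypes did not overlap at 129 of 1293 probes (9.98%), beside 9.35% of all. The median log2 difference was −0.05, and −0.03 over all probes, and 77 (5.95%) differed by over 1.5-fold, beside 4.13% of all. The lowest adjusted p of a probe outside the chromosome 5 locus was 0.996. With the significance test of the study's methods in place of limma, under the same criteria and without the further filters of those methods, 5 probes of these loci were called higher and 13 lower (1.39% of 1294), beside 379 of all 38888 probes (0.975%), 98 higher and 281 lower.

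**Figure D5:**
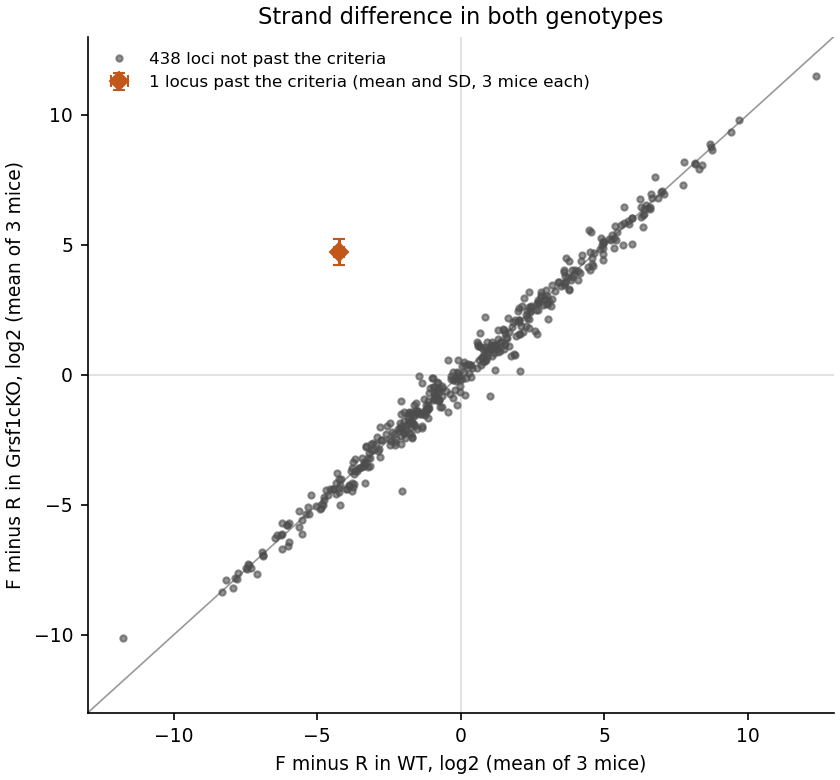
Mean F minus R in Grsf1cKO (vertical axis) against WT muscle (horizontal axis), both in log2 units, 1 point for each of the 439 tested loci. The points follow the diagonal, with a median absolute difference of 0.21, apart from the chromosome 5 locus, at 4.74 and −4.24.

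The 3 largest differences apart from chromosome 5 were at loci with at least 1 dim strand. At chr7:50509139-50526856, F minus R was −3.54, −4.29 and −5.60 in Grsf1cKO against −1.17, −2.83 and −2.15 in WT. The genotypes did not overlap, and R was the brighter strand in all 6 mice. The means were −4.47 ± 1.04 and −2.05 ± 0.84 (SD, n = 3 each), which differed by −2.42 (SE 0.594, adjusted p = 0.590 in limma), with F at −1.53 and R at 0.89. F was above background on 3 of 4 Grsf1cKO and 4 of 4 WT arrays, so the Grsf1cKO values rest in part on F signal near background. At chr1:121971906-121988306 the values were −0.06, −0.22 and 0.68 against 0.92, 2.10 and 3.21, with means of 0.13 ± 0.48 and 2.08 ± 1.14 and a difference of −1.94 (SE 0.556, adjusted p = 0.651). F was the brighter strand in every WT mouse and the strands were near level in Grsf1cKO. R was above background on 4 of 4 Grsf1cKO and 2 of 4 WT arrays, so the WT values rest in part on R signals near background. With all 6 mice, neither the difference on chromosome 7 nor that on chromosome 1 passed without a block. Both were called with replicate number as a block (adjusted p = 0.0932 on chromosome 7 and 0.119 on chromosome 1 in limma).

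At chrX:93154123-93164481 the values were −1.64, −0.83 and −0.02 in Grsf1cKO against 1.11, 1.62 and 0.34 in WT. R was thus brighter in all Grsf1cKO mice and F in all WT mice, by up to 1.64. The means were −0.83 ± 0.81 and 1.02 ± 0.64 (SD, n = 3 each) and differed by −1.85 (SE 0.477, adjusted p = 0.590 in limma), with F at −1.15 and R at 0.70. Both strands were dim here, with F measured in 4 mice and the R probe used in 5. The other R probe of this locus, measured in 1 mouse, differed by −0.06. At chr12:74135916-74142780, which was bright on both strands, F minus R was 0.04, 1.53 and 0.73 against 1.31, 1.25 and 3.08, and at chr9:40029344-40050160 it was 0.35, 1.69 and 2.67 against 2.07, 3.17 and 2.69. The genotypes overlapped at both, which differed by −1.11 and −1.07. Over the alternatives tried, these differences ran from −1.62 to −0.51 and from −1.62 to −0.42.

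Among loci with higher values in Grsf1cKO, chr14:105497388-105511063 had both strands measured in all mice. F minus R was 5.72, 5.10 and 5.92 in Grsf1cKO against 4.25, 4.45 and 4.74 in WT, with no overlap. The means were 5.58 ± 0.43 and 4.48 ± 0.25 (SD, n = 3 each) and differed by 1.10 (SE 0.286, adjusted p = 0.590 in limma). Most of this lay in R, which was 5.82, 6.48 and 6.18 against 7.24, 7.60 and 6.49, a difference of −0.95, while F differed by 0.15. At chr15:66682293-66722977 the values were 3.31, 1.68 and 1.67 against 1.64, 1.06 and −0.21, apart by a narrow margin, with a difference of 1.39 (adjusted p = 0.918). The probes used differed by 0.76 for F and −0.63 for R. The other F probe, measured in 0 mice, differed by −0.40 and the other R probe by 0.25, each of opposite sign. Over the alternatives tried, the difference in F minus R ran from 0.37 to 2.23. At chr13:108548345-108679004, described among the loci in favor of R, the means were −10.12 ± 0.56 and −11.78 ± 1.69 and differed by 1.66 (adjusted p = 0.918), of which the low F signal of WT 3 was a large part. At chr12:110738120-110769295 both strands were near background, and the values of 0.79, 0.19 and −1.10 against 0.90, −2.82 and −2.44 overlapped.

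None of the other tested loci on chromosome 5, where Grsf1 also lies, had a different brighter strand in the genotype means. There were 52 other loci, of which 36 passed the filter and were tested, with differences from −0.62 to 1.08. An unadjusted p under 0.05 was found at 1 of the 36, chr5:123582742-123588202 (−0.56, adjusted p = 0.918 in limma), which was named after its values were seen. The nearest tested locus, chr5:34696192-34722842, is 1252 kb away and differed by −0.05, with the brighter of its F probes above R in every mouse. The next, chr5:33174092-33200792 at 2774 kb, differed by −0.46, and chr5:31856417-31916414 at 4059 kb by 0.11. In every mouse R was the brighter strand at the locus 2774 kb away and F at the one 4059 kb away. A closer locus, chr5:35893909-35899497 at 76 kb, was not tested for F minus R, since its R probe was measured in 1 mouse. Its F probe, measured in 6 mice, differed by −0.29 (unadjusted p = 0.215 in limma). This locus was named after its values were seen.

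Named long noncoding RNAs, read by probes of their own, give a comparison with RNAs of known strand. Of 44 listed, 32 were matched to a probe by symbol, which 58.3% of all probes have, and 31 were measured in all mice. None was called by limma, and 1 of the 32 had an unadjusted p under 0.05, beside 4.25% of all probes, with a median difference of 0.05. That was Terc, the RNA template of telomerase, measured in 5 of 6 mice, at 4.95, 4.84 and 5.14 in Grsf1cKO against 6.05, 6.93 and 5.51 in WT, a difference of −1.19 (SE 0.352, adjusted p = 0.996). H19, an imprinted RNA abundant in muscle progenitors, was at 15.51, 16.24 and 17.10 against 15.39, 15.90 and 15.42, with overlap and a difference of 0.71 (adjusted p = 0.996). Meg3, also imprinted, differed by 0.28 and Neat1, which builds paraspeckles, by 0.19. The brightest probe of the list in WT muscle was that of Norad, at 16.85.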

How the data were processed

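The authors deposited Feature Extraction 12.0.3.1 output for each of 8 arrays, with a linear processed signal (intensity) per spot, and a table of scores. The authors made each score by centring and scaling the log2 signal of an array (z-score). It served as an alternative only. Control spots were left out, spots marked non-uniform or as outliers were set to missing, and log2 signals were quantile normalized and averaged per probe and per mouse. F minus R and single probes were fitted with limma 3.58.1 in R 4.3.3, with Benjamini-Hochberg adjustment over all tested loci or probes, and tested on simulated data. Named loci are those called, the 5 farthest from 0 on either side, the 5 with the brightest dimmer strand, the 5 largest genotype differences in either direction and the 3 tested loci nearest to a called one. Other loci named in the text were chosen after their values were seen, as stated where they appear. The members and lists were chosen with earlier results of these data known. Over residuals, mice of equal number had r of 0.49, 0.23 and 0.13 for F minus R. Gene symbols came from RefSeq (GRCm38.p6) for 32994 of 56605 probes (58.3%). The number of arrays limits the precision.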

Additional observations from a re-analysis of the deposited data

How the results depend on the processing

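The difference in F minus R at the chromosome 5 locus met the criteria under all 21 alternatives tried, and its F probe under all 20 that apply to probes. The R probe missed them with replicate number as a block (−4.09, adjusted p = 0.293 in limma), in slide 2 alone (−3.99, adjusted p = 0.287), without WT 1 and without WT 3, and ran from −4.31 to −3.93 with each mouse left out. The number of called loci was 1 to 2 higher and 0 to 1 lower with each mouse left out, and 2 lower with the replicate block. Called probes of these loci numbered 5 higher and 13 lower (1.39%) with the z-test computed here, which called 0.975% of all probes. That test was run without the further filters of the study's methods. Lower ones numbered 0 with the replicate block, 0 in slide 2 alone and 0 to 1 with each mouse left out. The median absolute F minus R was 1.10 with normexp, 2.60 from the deposited scores turned to log2, 2.59 without normalization, 2.50 when repeat arrays replaced the first ones, and 2.50 with the mean over the probes of a strand, chosen after seeing the data. Preferences over 4-fold in every mouse numbered 121 for F and 117 for R with normexp. At chr5:31856417-31916414 the small genotype difference changed sign with scaling to the 75th percentile (−0.045), with normexp (−0.023), and without Grsf1cKO 3 or WT 3, over a range of −0.22 to 0.36, and at chr5:34696192-34722842 with the deposited scores (0.064). Larger differences that were not called kept their sign but varied in size. Over the alternatives, differences ran from −2.52 to −0.54 at chr1:121971906-121988306, −2.89 to −1.14 at chr7:50509139-50526856 and −2.26 to −0.63 at chrX:93154123-93164481. The fit with slide as a block took arrays as units, with a correlation between arrays of a mouse of −0.0632 for F minus R, so that repeat arrays counted in effect as further mice. Signal over background limits F minus R, since a dim probe carries little RNA signal. The cause of these changes was not tested, and normexp changed the background correction and the offset together.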
